A study of Xenopus tropicalis x Xenopus laevis and Xenopus tropicalis with 6 samples.

Results

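GATA transcription factors were followed in hybrids of *Xenopus tropicalis* eggs and *Xenopus laevis* sperm and in *X. tropicalis* embryos, the maternal species. The table of counts names its features by gene and by species. The features taken were those whose name, without the homeolog ending L or S, was gata1, gata2, gata3, gata4, gata5 or gata6, and unnamed *X. laevis* or LOC features whose human gene name was one of these. This gave 15 of 45244 features, 5 of *X. tropicalis* and 10 of *X. laevis*. *X. laevis* is allotetraploid, so a gene can have a copy on a long (L) and on a short (S) homeologous chromosome. No *X. tropicalis* feature of gata1 and no S feature of gata2 was analysed here.

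Whole embryos were collected 7 hours after fertilization and their polyA RNA was sequenced, in 3 hybrid libraries (replicates 40, 41 and 42) and 3 *X. tropicalis* libraries (replicates 37, 38 and 39). The series describes them as biological replicates. The *X. tropicalis* embryos carried the *X. tropicalis* genome from egg and sperm, and the hybrids from the egg alone, with an *X. laevis* genome from the sperm. The *X. tropicalis* libraries held no *X. laevis* genome, so their counts on *X. laevis* features measure reads assigned to the wrong species. No strain, sex or number of embryos per library is given in the sources used here.

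GATA factors are zinc finger proteins that bind DNA at the sequence motif for which they are named. In vertebrates gata1, gata2 and gata3 are best known from blood formation, and in *Xenopus* gata2 and gata3 are also transcribed in the ventral ectoderm under bone morphogenetic protein (BMP) signalling. Gata4, gata5 and gata6 act in the endoderm, downstream of the maternal factor VegT and of Nodal signals, and later in the heart.

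Total counts ranged from 71435751 to 100025277 per library. Rank correlations between libraries of a group over all features were at least 0.853, and no library was left out. Stage markers were read on *X. tropicalis* features alone and scaled to the counts on that species, so paternal copies are not in these values. Of 17 such features of gastrula regions, 14 lay above 1 CPM (counts scaled to library size) in every library. The summed level of the 17 was 1977 to 2404 CPM in hybrids and 3321 to 3557 CPM in *X. tropicalis*. Of 15 features of tissues that differentiate later, 0 lay above 1 CPM in every library. Their sums were 4.28 to 17.4 CPM in hybrids and 14.0 to 22.0 CPM in *X. tropicalis*. The part of these differences in the GATA levels was not tested.

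All 5 *X. tropicalis* GATA copies were lower in hybrids, at 16.4 to 42.6% of their level in *X. tropicalis* embryos. Counts on the paternal copies differed widely between members. Paternal counts of gata4 and gata5 lay far above the background of misassigned reads, while the only paternal gata2 feature, on chromosome 4L, did not pass the test, and the gata3 feature on 3L had 6 hybrid counts in all. Counted over both species, gata2, gata3, gata4 and gata6 were lower in hybrids, and gata5 did not pass the test. Across all 15 features, GATA counts came to 309, 236 and 151 CPM of all counts in hybrid replicates 40, 41 and 42, against 575, 516 and 557 in *X. tropicalis* replicates 37, 38 and 39.

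The copies in the *X. tropicalis* genome were compared first. In hybrids transcripts of these copies come from the egg, either stored in it or transcribed from its genome, and the counts do not separate these sources. Their counts in hybrids can also hold *X. laevis* reads assigned to the wrong species. No library used here measures that background. The number of *X. tropicalis* gene copies, which is smaller in hybrids, cannot be told apart from the other differences between the groups. CPM of *X. tropicalis* features are scaled to the counts on features of that species. In whole embryos, fewer cells of a type and less RNA per cell cannot be told apart. All 5 features passed the filter for low counts, and 5 of 5 were called lower (edgeR quasi-likelihood test, Benjamini-Hochberg adjusted over all features of the species), against 3.0% of all 14079 tested. The members were chosen with earlier results of these data known. The median log2 fold change of the 5 was -2.01, and that of all tested features -0.01.

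The factors of the ectoderm and blood came out as follows. The gata2 copy, on *X. tropicalis* chromosome 4, stood at 213, 244 and 234 CPM in *X. tropicalis* replicates 37, 38 and 39, and at 127, 100.3 and 66.9 CPM in hybrid replicates 40, 41 and 42. The groups did not overlap, and hybrid replicate 42 was the lowest library. The *X. tropicalis* mean was 231 CPM ± 15.8 and the hybrid mean 98.2 CPM ± 30.3 (SD, n = 3), a log2 fold change of -1.23 ± 0.21 SE (edgeR adjusted p = 0.00705). The gata3 copy, on chromosome 3, had the fewest counts of the 5, with 632, 619 and 747 counts in *X. tropicalis* and 36, 132 and 81 in hybrids. In CPM these were 7.35, 7.34 and 7.88 against 0.543, 1.74 and 1.42. No hybrid library came near the *X. tropicalis* libraries, which lay close together. The log2 fold change was -2.61 ± 0.58 SE (edgeR adjusted p = 0.0336). The call of gata3 was lost when any of the 6 libraries was left out, with an adjusted p of 0.0505 to 0.137 and a fold change of -2.94 to -2.25.

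Among the factors of the endoderm and heart, the gata4 copy, on scaffold_13, stood at 209, 172 and 160.1 CPM in *X. tropicalis* and at 72.7, 44.0 and 30.1 CPM in hybrids. Hybrid replicate 42 was again the lowest, and the groups lay well apart. The log2 fold change was -1.88 ± 0.28 SE (edgeR adjusted p = 0.00334). The gata5 copy, on scaffold_473, stood at 29.5, 25.6 and 25.5 CPM in *X. tropicalis* and at 5.25, 5.77 and 9.05 CPM in hybrids (log2 fold change -2.01 ± 0.29 SE, edgeR adjusted p = 0.00319). Here replicate 42 was the highest hybrid library, unlike for gata2, gata4 and gata6. The gata6 copy, on chromosome 6, varied most between libraries, with 157, 79.8 and 137 CPM in *X. tropicalis* and 45.0, 25.2 and 10.5 CPM in hybrids. The lowest *X. tropicalis* library still lay above the highest hybrid library. Its log2 fold change of -2.21 ± 0.44 SE (edgeR adjusted p = 0.0200) lost its call without hybrid replicate 41 (0.0936) and without *X. tropicalis* replicate 37 (0.0765) or 39 (0.0753). Gata2, gata4 and gata5 kept their calls with each library left out in turn, with an adjusted p of up to 0.0356.

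**Figure D1:**
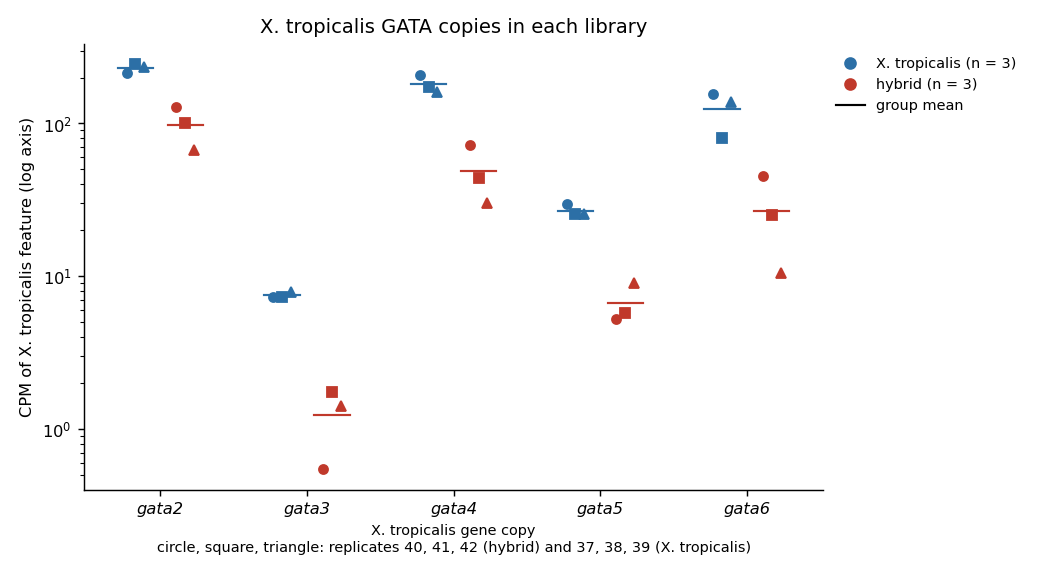
Level of the 5 *X. tropicalis* GATA features in each library, in CPM of *X. tropicalis* counts on a log axis, with *X. tropicalis* embryos in blue, hybrids in red and a line at each group mean (n = 3). For gata3 the hybrid libraries lie at 0.543 to 1.74 CPM and the *X. tropicalis* libraries at 7.34 to 7.88 CPM. The share of all tested features whose groups do not overlap was not counted.

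**Figure D2:**
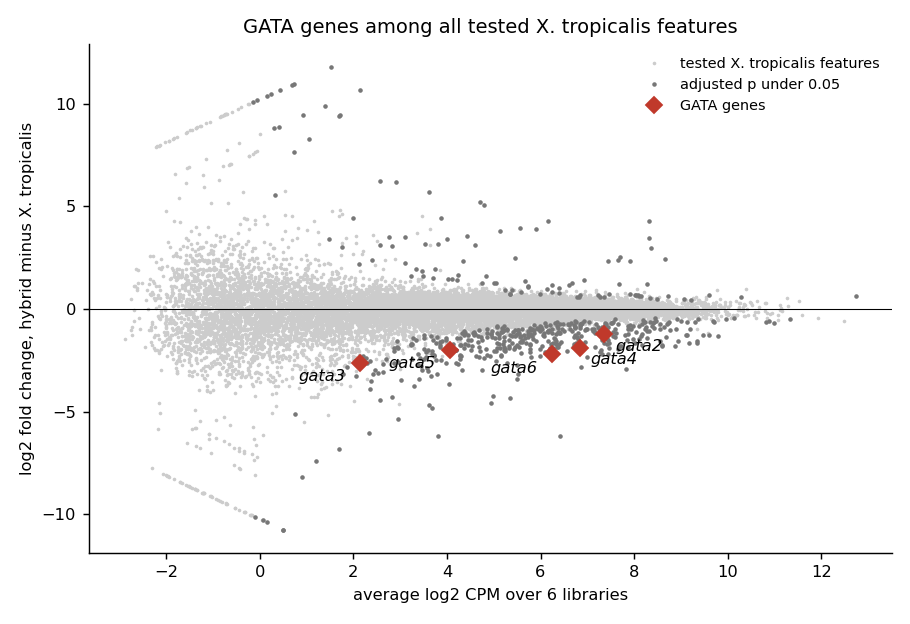
Log2 fold change (hybrid minus *X. tropicalis*) against the average log2 CPM for all 14079 tested *X. tropicalis* features, with those at an adjusted p under 0.05 in dark grey and the GATA genes in red. The GATA genes lie between -1.23 (gata2) and -2.61 (gata3), below the median of all features at -0.01.

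Ratios between copies within a library, which need no scaling between libraries, compare the members with each other. Log2 of gata3 over gata2 was -4.86, -5.06 and -4.89 in *X. tropicalis* and -7.87, -5.85 and -5.56 in hybrids. Gata4 over gata2 was -0.03, -0.51 and -0.55 against -0.81, -1.19 and -1.15. In these pairs the groups did not overlap, by -1.49 and -0.69 on average. The exact permutation test (2-sided) gave p = 0.1 for each, the smallest value that 3 against 3 libraries allow, and 0.5 adjusted over the 10 pairs compared. In the other 8 pairs the groups overlapped (exact permutation p from 0.2 to 0.9). The smallest p that this test can give lies above the threshold for adjusted p used here, so no pair could have passed. The test therefore cannot decide whether the members differed in their fall.

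The 10 *X. laevis* features were compared with the background in *X. tropicalis* libraries, in CPM of all counts. Of these, 9 reached the minimum of 10 counts summed over hybrids and were tested, and 5 lay above background (edgeR), against 38.5% of all 23919 *X. laevis* features tested. The minimum uses the hybrids alone, the group in which such a call is higher, for members and all features alike. Without it, 9243 of 27182 features lay above background, and 5 GATA features as before. A share of this size among so few is not a result about the GATA genes as a group, and the members differed widely.

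Paternal gata4 had the highest counts above background. The gata4.S feature, on chromosome 5S, had 1836, 2660 and 1478 counts in hybrid replicates 40, 41 and 42 and 6, 1 and 4 in *X. tropicalis*, or 23.4, 28.9 and 21.3 CPM against at most 0.0661. The gata4.L feature, on 5L, had 1718, 1871 and 730 counts against 51, 14 and 37, or 21.9, 20.3 and 10.5 CPM against 0.156 to 0.562. Both copies were present in every hybrid library (log2 fold change over background 9.24 ± 0.61 SE and 5.60 ± 0.58 SE, edgeR adjusted p = 1.31e-12 and 1.03e-08). S counts per L count were 1.07, 1.42 and 2.02 in the 3 libraries. Feature lengths are not in the table, so a ratio of counts between copies is not a ratio of transcripts.

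Paternal gata5 had more counts on the S feature than on the L feature. The feature on chromosome 9_10S had 1003, 957 and 843 counts in hybrids and 2, 0 and 2 in *X. tropicalis* (12.8, 10.4 and 12.1 CPM against at most 0.0220; log2 fold change 9.56 ± 0.83 SE, edgeR adjusted p = 3.76e-10). Its 3 hybrid libraries lay closer together than those of the other members. The feature on 9_10L had 140, 219 and 112 counts against 0 in every *X. tropicalis* library, at least 184-fold higher against a floor of 3 counts over those libraries (edgeR adjusted p = 1.14e-04). The S feature took 7.16, 4.37 and 7.53 counts for each L count.

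For gata6 the copies differed in background. The gata6.L feature, on 6L, had 231, 63 and 44 counts in hybrids and 0 in *X. tropicalis*, at least 132-fold higher (edgeR adjusted p = 7.47e-04), and replicate 40 carried most of them. The gata6.S feature, on 6S, had 1593, 1434 and 623 counts in hybrids, but also 1071, 1752 and 1848 in *X. tropicalis*, where no such gene was present. In CPM these were 20.3, 15.6 and 8.98 against 11.8, 19.5 and 18.4, which overlap (log2 fold change -0.15 ± 0.37 SE, edgeR adjusted p = 0.766). The sign of that difference turned with the scaling, to 0.03 when scaled like the *X. tropicalis* features, so no direction is given.

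The paternal features of gata2, gata3 and gata1 did not pass the test or the count minimum. The gata2 feature on 4L had 139, 91 and 87 counts in hybrids and 42, 39 and 3 in *X. tropicalis* (1.77, 0.989 and 1.25 CPM against 0.463, 0.435 and 0.0298). The hybrid libraries were the higher ones without overlap, but the test did not pass (edgeR adjusted p = 0.218). The gata3 feature on 3S had 188, 162 and 98 counts against 163, 84 and 194, with overlapping groups (edgeR adjusted p = 0.832). The gata3 feature on 3L had 0, 6 and 0 counts against 8, 5 and 5 and was below the count minimum. Gata1, the erythroid factor, was counted on gata1.S alone, on chromosome 8S, with 23, 0 and 28 counts in hybrids and 0 in *X. tropicalis* (edgeR adjusted p = 0.152). Beside these values, 20.5% of the tested features of 3L and 20.9% of those of 4L lay above background, against 37.9 to 44.2% on the other 16 *X. laevis* chromosomes. The share on 3S, which holds the tested gata3 feature, was 41.1%, within that range. The part of the low shares of 4L and 3L in the counts of gata2 on 4L and gata3 on 3L was not tested.

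**Figure D3:**
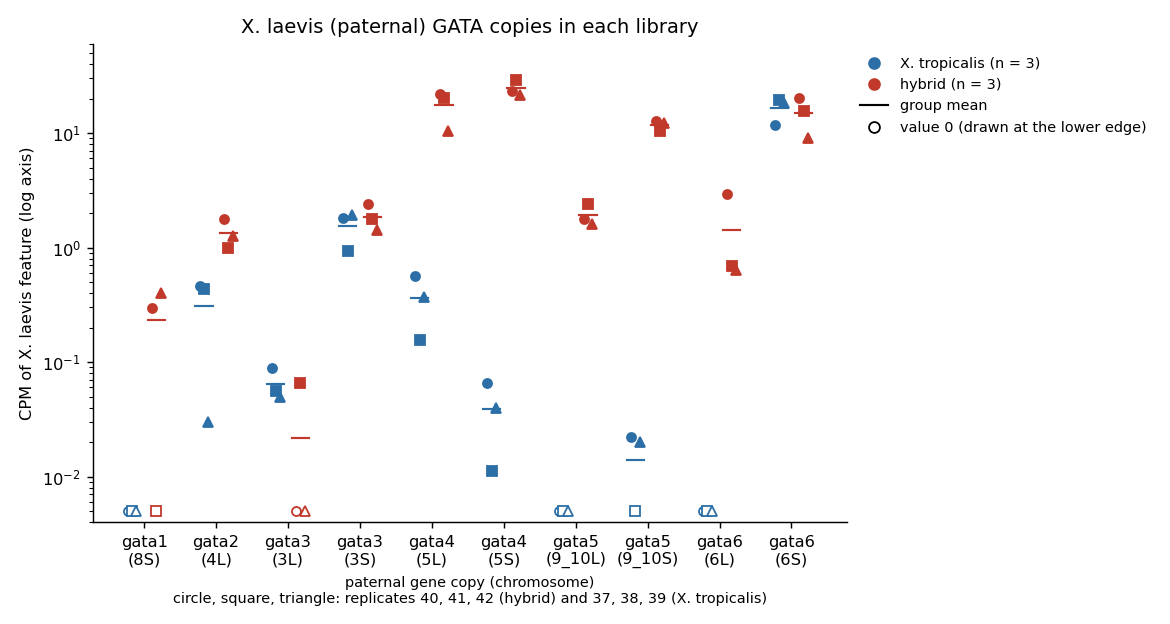
Level of the 10 *X. laevis* GATA features in each library, in CPM of all counts on a log axis, with hybrids in red, the background in *X. tropicalis* libraries in blue and a line at each group mean (n = 3). Open symbols are values of 0 drawn at the lower edge. The gata4 and gata5 features, gata6.L and gata2 (4L) separate from background, though gata2 (4L) did not pass the test. The gata6.S (6S), gata3 (3S and 3L) and gata1 (8S) features overlap with it.

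Since the *X. tropicalis* copies were lower in hybrids, counts on each *X. laevis* feature were also set against the counts of the *X. tropicalis* copy in the same library. For gata6.S there were 53.4, 74.8 and 103 counts per 100 gata6 counts in hybrids, against 7.96, 26.0 and 14.2 in *X. tropicalis*. For gata3 on 3S there were 522, 123 and 121 against 25.8, 13.6 and 26.0, and for gata2 on 4L 1.65, 1.19 and 2.27 against 0.229, 0.189 and 0.0135. On this measure the groups did not overlap for any of the 3 features, whereas by level those of gata6.S and gata3 on 3S did. In all, 8 of 9 features were higher in every hybrid library than in every *X. tropicalis* library, the exception being gata3 on 3L. At an unchanged *X. laevis* level this ratio rises wherever the *X. tropicalis* copy falls, as it did in all 5 genes. Over all 9291 pairs of *X. laevis* and *X. tropicalis* features with a shared symbol, 57.7% were so. These pairs needed a named *X. laevis* feature with at least 10 hybrid counts. They also needed at least 100 hybrid counts of the gene over both species, and *X. tropicalis* counts in every library. Gata3 on 3L, with 6 hybrid counts, is below the first minimum but is among the 9 GATA features. The *X. laevis* features of gata2, gata3 and gata5 are unnamed. All tested *X. tropicalis* features had a median log2 fold change of -0.01, against -2.01 for the 5 GATA copies. For these reasons the shares are not alike. By level, the mean background of gata6.S was 16.6 CPM beside 8.98 to 20.3 CPM in hybrids, and that of gata3 on 3S 1.55 CPM beside 1.41 to 2.40 CPM. By ratio, the mean background was 20.8% of the hybrid mean for gata6.S and 8.53% for gata3 on 3S. Which of these backgrounds applies was not tested.

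**Figure D4:**
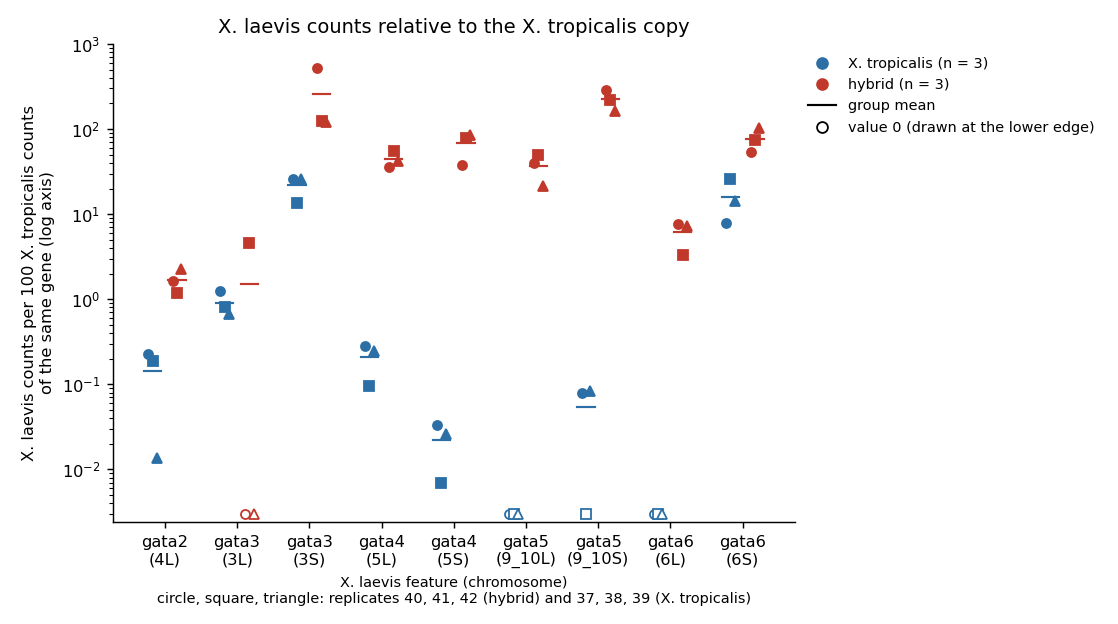
Counts on each *X. laevis* GATA feature per 100 counts on the *X. tropicalis* copy of the same gene and library, on a log axis, with hybrids in red, *X. tropicalis* libraries in blue and a line at each group mean (n = 3). Open symbols are values of 0. Hybrid and *X. tropicalis* libraries separate in 8 of 9 features, by least for gata6.S (6S), at 53.4 to 103 against 7.96 to 26.0. The ratio also rises where the *X. tropicalis* copy falls.

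The share of a gene's counts on *X. laevis* features was taken in each library. It is a share of counts, not of transcripts. Of the gata5 counts, 76.7, 72.8 and 64.8% lay on *X. laevis* features in hybrid replicates 40, 41 and 42, and at most 0.0826% in *X. tropicalis*. Of the gata4 counts these were 42.5, 57.5 and 56.2%, against 0.103 to 0.317%. Of the gata2 counts they were 1.62, 1.18 and 2.22%, against 0.0135 to 0.229%. Exact binomial 95% intervals, which cover counting error only, were widest for gata5 in replicate 42 among these hybrid shares, at 62.3 to 67.3%. The order gata5, gata4, gata2 held in every hybrid library, with no overlap between these genes. For gata6 the share was 44.8% ± 7.36 (SD, n = 3) with a background of 13.5% ± 6.70, and for gata3 64.9% ± 16.5 with a background of 18.3% ± 4.96. With the mean background level subtracted, the mean share was 8.33% for gata6 and 25.8% for gata3, and 51.8% for gata4, 71.4% for gata5 and 1.28% for gata2. Levels below background entered at 0. This held for gata3 on 3S in replicate 42 (1.41 CPM, background 1.55 CPM). It held for gata3 on 3L in replicates 40 and 42 (0 CPM, background 0.0645 CPM). It also held for gata6.S in replicates 41 and 42 (15.6 and 8.98 CPM, background 16.6 CPM). For gata3 on 3S, replicates 40 and 41 stood at 2.40 and 1.76 CPM, so its mean share rests mostly on replicate 40. Over 7623 genes with a symbol, features of both species and at least 100 hybrid counts, the median share after subtraction was 6.67%, with quartiles of 1.57 and 26.5%. These genes were counted on named features only, while the shares of gata2, gata3 and gata5 rest on unnamed *X. laevis* features.

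**Figure D5:**
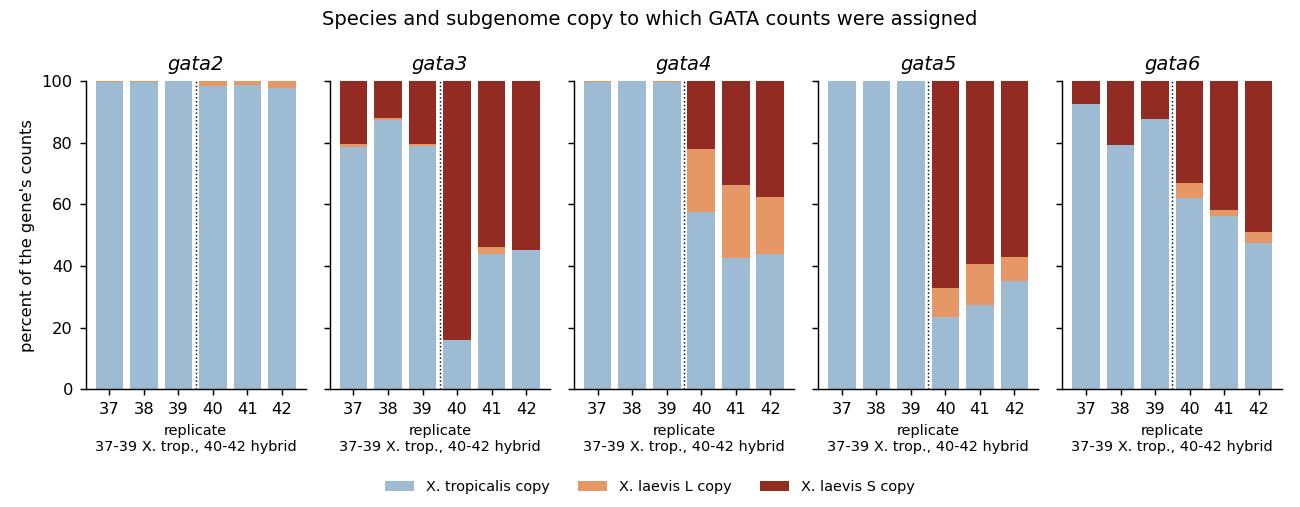
Percent of each gene's counts on its *X. tropicalis*, *X. laevis* L and *X. laevis* S features, by library (37 to 39 are *X. tropicalis*, 40 to 42 hybrid), without subtraction of background. Gata5 reaches 64.8 to 76.7% *X. laevis* counts in hybrids and gata2 stays at 1.18 to 2.22%, while gata3 and gata6 show *X. laevis* counts in the *X. tropicalis* libraries too.

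Counts summed over both species compare the groups without splitting a gene by copy. They are scaled counts over features of unknown length, not amounts of transcript per embryo. The authors' deposited sums under human names were tested. GATA1 did not pass the filter for low counts, and of the other 5 names 4 were called lower (edgeR), against 2.85% of all 12680 names tested. GATA5 stood at 29.4, 25.3 and 25.4 CPM in *X. tropicalis* and at 20.3, 18.5 and 22.1 CPM in hybrids. The groups did not overlap, yet the difference of -0.40 ± 0.20 SE on the log2 scale did not pass (edgeR adjusted p = 0.277, unadjusted p = 0.0725). GATA4 stood at 208, 170.5 and 159.9 CPM against 114, 90.1 and 58.9, a log2 fold change of -1.04 ± 0.22 SE (edgeR adjusted p = 0.0147), beside -1.88 for the *X. tropicalis* copy alone. The log2 fold change was -1.38 ± 0.21 SE for GATA2 (edgeR adjusted p = 0.00237), -1.83 ± 0.37 SE for GATA6 (0.0119) and -1.59 ± 0.39 SE for GATA3 (0.0338). Without hybrid replicate 41, GATA4 (adjusted p = 0.0548) and GATA6 (0.0539) lost their calls, and GATA3 lost its call when any of the 6 libraries was left out (up to 0.101). The gata6.L feature has no human name in the table, and the sum for GATA6 leaves it out.

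Genes that act with or around GATA factors were taken from lists and read on *X. tropicalis* features, where 3.0% of all tested features were lower and 0.760% higher. The lists were chosen with earlier results of these data known. Falls given below are of *X. tropicalis* copies, which are fewer in hybrids. No sum over both species was tested for the lists. Above background lay 26 of 35 tested *X. laevis* features of the BMP list and 26 of 39 of the ectoderm list, against 38.5% of all. For endoderm these were 35 of 52, for cofactors 12 of 21, for blood, endothelium and heart 8 of 26, and for gastrula markers 23 of 25. In the list of the BMP pathway and its ventral response genes, 8 of 22 tested features were lower and 0 higher (edgeR), with a median log2 fold change of -0.77. With DESeq2 or by raw p below 0.05, 0 were higher as well. The BMP ligand gene bmp4 stood at 250.2 CPM ± 11.8 (SD, n = 3) in *X. tropicalis* and fell to 90.4 CPM ± 3.79 (-1.47 on the log2 scale). The inhibitor of helix-loop-helix factors id3 (-1.27), the BMP pseudoreceptor gene bambi (-0.87) and the ventral homeobox gene ventx2.1 (-0.81) fell as well. In the ectoderm list, 6 of 25 were lower and 1 higher, with a median of -0.57. The keratin gene krt stood at 260.0 CPM ± 48.4 in *X. tropicalis* and fell to 56.7 CPM ± 13.0 (-2.20), and the E-cadherin gene cdh1 (-1.79) and the epidermal regulator tfap2a (-1.05) also fell. The forkhead gene foxi1 was the member that rose, from 28.3 CPM ± 6.28 to 73.8 CPM ± 5.78 (1.38).

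In the endoderm network around gata4, gata5 and gata6, 11 of 38 tested *X. tropicalis* features were lower and 0 higher (edgeR), with a median of -0.91. By raw p below 0.05, 2 were higher, and DESeq2 called 17 lower and 2 higher. Without hybrid replicate 41, edgeR called 7 lower and 0 higher, and without hybrid replicate 40, 14 lower and 1 higher. Without the filter for low counts 13 were lower and 1 higher. The endodermal gene darmin stood at 35.6 CPM ± 4.66 (SD, n = 3) in *X. tropicalis* and fell to 4.57 CPM ± 1.90 (-2.96). The secreted factor gene pnhd (-2.35), the head homeobox gene otx2 (-2.01) and the TGF-beta ligand gene gdf3 (-1.15) also fell. Among GATA cofactors and partners, 1 of 9 was lower and 0 higher (edgeR and DESeq2; also 0 higher by raw p below 0.05), with a median of 0.09. This was the acetyltransferase gene ep300 (-0.73, edgeR adjusted p = 0.0328), which was not called in 4 of 6 fits that left out a library, namely hybrid replicates 41 and 42 and *X. tropicalis* replicates 37 and 39 (adjusted p up to 0.152). In the list of blood, endothelium and heart, edgeR called 0 of 10 tested features, with a median of -0.79. An edgeR p below 0.05 before adjustment was reached by 2 lower and 2 higher features. DESeq2 called 2 lower and 0 higher. Without the filter for low counts edgeR called 1 higher, and so it did without *X. tropicalis* replicate 39. Of the 10, hand2 had the smallest p with edgeR, with means of 1.304 CPM ± 0.386 (hybrid) and 5.20 CPM ± 0.649 (*X. tropicalis*; SD, n = 3; edgeR adjusted p = 0.117, DESeq2 adjusted p = 0.0274). Of the gastrula markers, 8 of 17 were lower and 1 higher (4 lower without hybrid replicate 41). This list shares genes with those above, such as ventx2.1, and its higher gene is foxi1 again, so it is not separate from them. The dorsal BMP antagonist gene chrd (-1.67), the neural gene sox2 (-1.95) and the mesodermal gene t, or brachyury (-1.01), were the lower members with the smallest adjusted p. Apart from ep300, the genes that fell or rose by name in these lists kept their calls with each library left out.

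Genes whose pattern over the 6 libraries was most like that of a GATA copy were found among 8712 *X. tropicalis* features with a symbol, by the root mean square difference of log2 CPM after centring. They are a description, since any gene lower in hybrids by a like amount comes close. Nearest to gata2 were the Notch ligand gene dll1 (0.07) and the Nodal inhibitor gene lefty (0.09), against a median distance of 0.76 over the candidates. Nearest to gata4 were otx2 (0.10) and the protocadherin gene pcdh8.2 (0.18), to gata5 the sodium pump subunit gene atp1b2 and the uroplakin gene upk3b (both 0.13), and to gata3 the RNA-binding gene rbm20 (0.17) and nek2-like.2 (0.34). Nearest to gata6 were ahnak-like (0.34) and pnhd (0.35), with gata4 at rank 8 (0.43). Gata5 was at rank 15 for gata3 (0.57). No other GATA gene ranked within the nearest 20 of a member.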

How the data were processed

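PolyA RNA of whole embryos was sequenced in 3 hybrid and 3 *X. tropicalis* libraries. The authors deposited raw counts per feature and raw counts summed to human gene names, with no normalization. The aligner BWA 0.7.10 is named, per the submitters' processing notes. How reads were counted, on which genome builds and whether by strand, is not given in the sources used here. Reads shared by species or homeologs may lie on either copy. Groups came from the labels.

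Counts were tested with edgeR 4.0.16 (R 4.3.3): filterByExpr, TMM factors, quasi-likelihood test and Benjamini-Hochberg adjustment at 0.05 over all features of a fit. *X. tropicalis* features and human names were fitted separately. *X. laevis* features with at least 10 hybrid counts were scaled to total counts times the TMM factors of *X. tropicalis* features. Standard errors (SE) were taken as log2 fold change / √F. Alternatives were DESeq2 1.42.0, other filters and scalings, and each library left out. Tests were checked on simulated data whose dispersion was capped below that of these data. That check does not cover the spread between the real replicates. False calls were 6.80% of its calls for *X. tropicalis* features, 3.03% for *X. laevis* features and 4.93% for human names. Intervals and floors cover counting error only, as PCR copies are not independent molecules. List members were matched by symbol, or by human name for unnamed features. Named list genes are the 4 called with the smallest adjusted p, or the 1 with the smallest p. For pattern likeness, the 2 nearest features with an average log2 CPM over 1 are named (prior count 2). The members and lists were chosen with earlier results of these data known. No sequence was used here. Figures were drawn with matplotlib 3.10.9.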

Additional observations from a re-analysis of the deposited data

How the results depend on the processing

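With each library left out in turn, the *X. tropicalis* GATA features called lower numbered 3 to 4 in place of 5, and the human names called lower 1 to 3 in place of 4, while the *X. laevis* features above background numbered 5 in each. The falls kept their direction in every one of these fits. Under DESeq2, other filters, upper quartile factors and other library sizes the counts were 5, 5 and 4, except that 4 *X. laevis* features passed with 1 CPM in 3 libraries. DESeq2 called 795 *X. tropicalis* features lower in place of 422 and 398 higher in place of 107, and 686 human names lower in place of 362 and 1047 higher in place of 641. Without the filter 622 *X. tropicalis* features were lower and 244 higher. With a library left out, 268 to 500 *X. tropicalis* features and 164 to 402 human names were lower. For gata6.S the sign of the log2 fold change turned to 0.037 with DESeq2, to 0.12 without hybrid replicate 42, to 0.0020 without *X. tropicalis* replicate 38 and to 0.029 with the scaling of *X. tropicalis* features, over a range of -0.43 to 0.12 when a library was left out, and the cause was not tested. That last scaling, and the addition of gata6.L to GATA6 (4 names called), were chosen after seeing the data. In the ectoderm list DESeq2 called 10 features lower in place of 6. No paired analysis was made, because the labels do not say whether any hybrid and *X. tropicalis* libraries belong together. The gata3 feature on 3L had 6 hybrid counts and gata1.S was at 0 in 1 of 3 hybrid libraries, so depth limits what these features can show.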
